A study of Mus musculus with 42 samples.

Results

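Transcripts of 40 genes of PPAR alpha signalling and fatty acid oxidation were followed in kidney and liver of mice given compounds in the diet. The genes were chosen by symbol from a list of PPAR alpha targets, the enzymes of fatty acid oxidation and their regulators, and all 40 were found among the 43629 genes of the count table. PPAR alpha is a nuclear receptor that fatty acids activate, and in liver and kidney tubule it raises the transcription of genes for the uptake, activation and oxidation of fatty acids. Acyl chains enter mitochondria through the carnitine shuttle and are shortened by beta oxidation, which passes electrons to the respiratory chain through the electron transfer flavoprotein. Peroxisomes shorten other chains, and the Cyp4a enzymes of the endoplasmic reticulum hydroxylate the far end of the chain (omega oxidation), a response long used as a sign of PPAR alpha activation in rodents.

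Mice were males of the genetically mixed stock UM-HET3, fed from 3 months of age for 1 month and sampled at 4 months. Diets held AS-703026 at 30 ppm (an inhibitor of the kinase MEK, also called pimasertib), ascorbyl-palmitate at 6.3 ppm (a fat-soluble ester of vitamin C), AZD8055 at 20 ppm or KU0063794 at 10 ppm (inhibitors of the kinase mTOR), enzastaurin at 75 ppm (an inhibitor of protein kinase C) or GDC-0941 at 50 ppm (an inhibitor of PI 3-kinase, also called pictilisib), and control mice ate the same chow without a compound. The 30 kidney libraries came from 4 mice for each of the 6 compounds and 6 control mice. The 12 liver libraries came from 4 mice each for AS-703026, enzastaurin and GDC-0941. Livers of control mice were not analysed here, and the liver groups were set against each other.

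Kidney libraries held 863605 to 5691067 counts in total, with a median of 2248550. Liver libraries held 1084591 to 4361115. Proximal tubule markers took 1.24% to 6.59% of the counts of kidney libraries, and hepatocyte markers 10.6% to 13.6% of those of liver libraries, so the tissue labels held. AZD8055 kidney replicate 4 held adipose transcripts (5.35% of its counts from 13 adipocyte genes, Adipoq at 2799 CPM against at most 13.8 CPM in the other kidney libraries), and it is described apart and left out of the kidney fit, which leaves 3 AZD8055 kidneys. Enzastaurin kidney replicate 1 held liver transcripts (Alb at 625 CPM), and enzastaurin liver replicate 2 held adipose transcripts (Adipoq at 46.8 CPM). Satellite-like gene models, repeats counted as genes, took 5% or more of the counts in 11 kidney libraries, among them AS-703026 replicates 2, 3 and 4. Levels are CPM, scaled by TMM factors computed within each tissue, so levels in kidney and in liver are not on a shared scale. Changes are log2 ratios of the first named group over the second, with their standard error (SE).

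After the filter on low counts, 35 of the 40 genes were tested in kidney and 37 in liver. Acadvl, the very long chain acyl-CoA dehydrogenase, Acot8, a peroxisomal thioesterase, and Fgf21, a hormone that fasting induces in liver, passed in neither tissue, with at most 2.53, 1.88 and 7.63 CPM in any library. Acaa1b, a peroxisomal thiolase, and Creb3l3, a liver-enriched transcription factor, passed in liver only. Of the last 500 exonic bases of Acadvl, 82.0% lie opposite the neighbouring gene Dvl2, and its count is uncertain, since the strand setting of the counting is unknown here. The filter looked at the libraries of all groups of a tissue together, so a gene could pass without being detected in every group. Counts over the genes that passed cover detected genes and not the whole list.

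**Figure D1:**
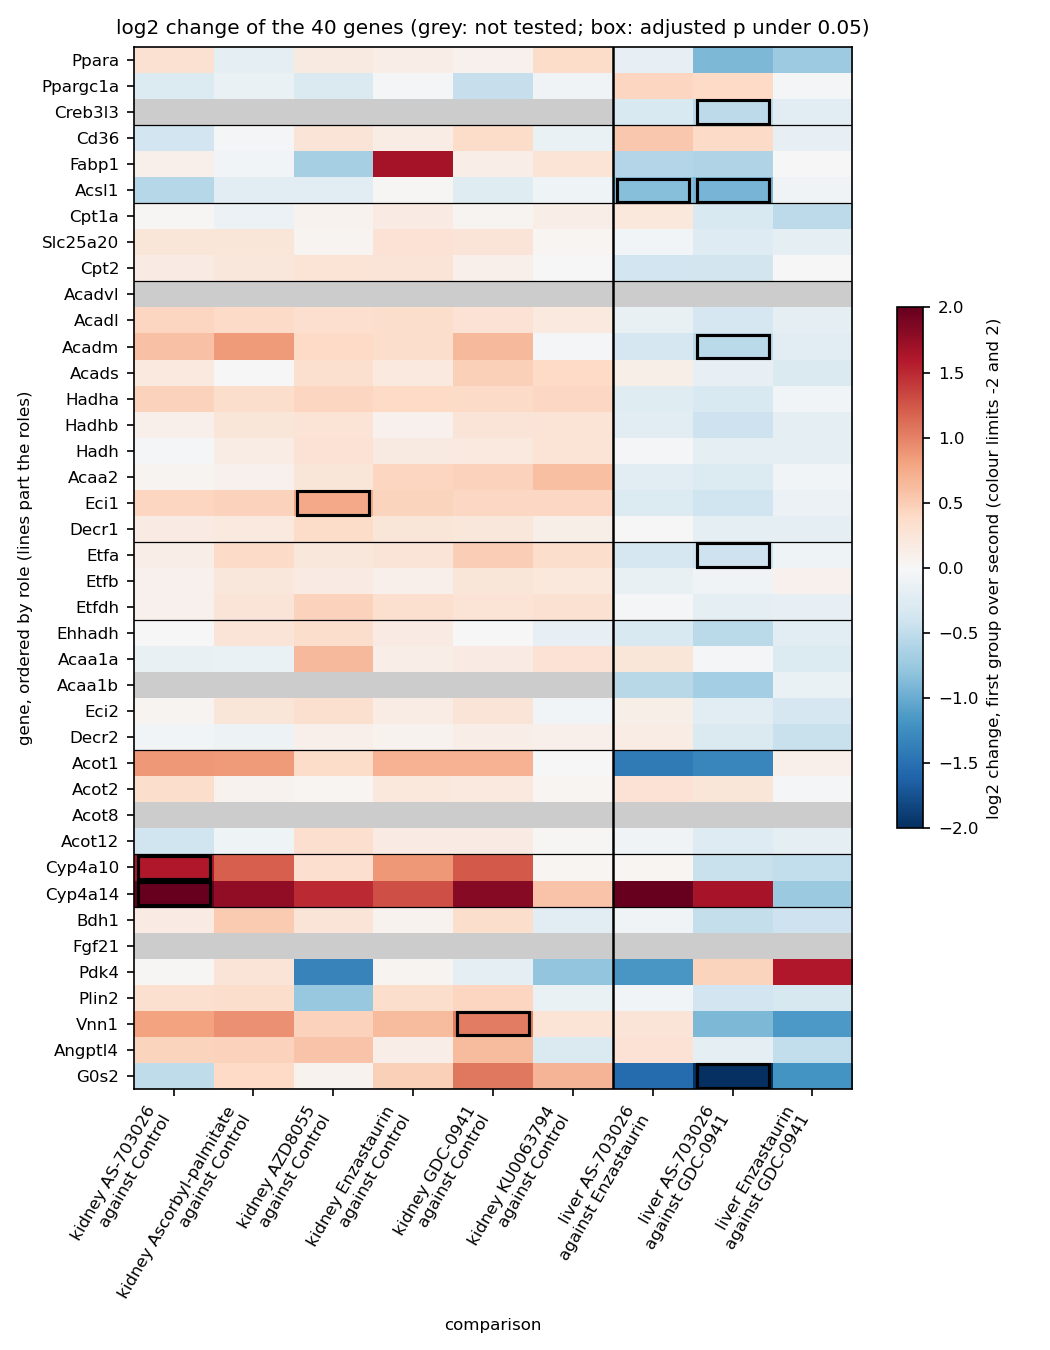
The log2 change of each of the 40 genes (rows, ordered by role) in the 6 kidney comparisons with control and the 3 liver comparisons between compounds (columns), with red higher and blue lower in the first group, grey not tested and a black box for an adjusted p under 0.05. The boxed kidney cells are Cyp4a14 and Cyp4a10 under AS-703026, Eci1 under AZD8055 and Vnn1 under GDC-0941, and all 6 boxed liver cells are lower under AS-703026.

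In kidneys of mice given AS-703026 the omega hydroxylases Cyp4a14 and Cyp4a10 rose. Cyp4a14 had 25.5, 21.7, 21.2 and 13.6 CPM in AS-703026 kidneys, against 5.46, 2.91, 1.61, 2.93, 1.15 and 6.57 CPM in control kidneys. Cyp4a10 had 200, 362, 381 and 251 CPM in AS-703026 kidneys, against 143, 57.7, 92.0, 118, 86.2 and 107 CPM in control kidneys. For both genes every AS-703026 library lay above every control library. Cyp4a14 had 666 counts in total over the 30 kidney libraries, so its levels in control kidneys rest on few reads. Cyp4a14 was higher by 2.51 ± 0.64 (log2, SE; adjusted p = 0.0356) and Cyp4a10 by 1.59 ± 0.41 (adjusted p = 0.0411) by edgeR's quasi-likelihood test with Benjamini-Hochberg adjustment over all 12227 genes. These were 2 of the 35 tested genes of the list, against 2.69% of all genes called in this comparison (1.11% higher and 1.58% lower), and 0 were lower. Both genes also had positive log2 changes in every other kidney comparison, against the same controls, and neither passed there in this fit. The lower and higher of the 2 changes were 1.196 and 1.771 with ascorbyl-palmitate and 1.234 and 1.815 with GDC-0941. They were 0.867 and 1.282 with enzastaurin, 0.34 and 1.49 with AZD8055 and 0.046 and 0.564 with KU0063794. DESeq2 called Cyp4a10 with GDC-0941 (adjusted p = 0.039). Without a filter on low counts, edgeR called both genes with ascorbyl-palmitate, GDC-0941 and enzastaurin, and Cyp4a14 with AZD8055. A rise of these genes was thus not shown to be particular to AS-703026.

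DESeq2 also called both genes with AS-703026 (adjusted p = 0.00389 for Cyp4a14 and 0.0084 for Cyp4a10), and limma voom called Cyp4a14 alone (adjusted p = 0.0382). The edgeR calls were close to the threshold of 0.05. Neither gene passed without AS-703026 replicate 2, 3 or 4 or control 3, 4 or 5, and Cyp4a10 did not pass without control 2 or 6 either. Over the 11 fits that left out a library, the log2 change ran from 2.30 to 2.93 for Cyp4a14 (adjusted p up to 0.101) and from 1.45 to 1.74 for Cyp4a10 (adjusted p up to 0.118). With the satellite-like share in the fit the log2 change of Cyp4a14 was 2.35 (adjusted p = 0.0645) and that of Cyp4a10 was 1.49 (adjusted p = 0.0739, both edgeR). Without the kidney libraries at or above 5% satellite-like counts, which leaves 1 AS-703026 library, they were 2.62 (adjusted p = 0.384) and 0.84 (adjusted p = 0.746). Cyp4a10 shares 15.0% of the 24-base words of its 3′ end with Cyp4a31, so its counts may hold reads of that copy. Larger shares were found for Etfb (60%, with Gm45233), Hadhb (42.7%, most with Gm13910), Decr2 (33.5%, over several genes) and Eci2 (20.8%, with Eci3), and the values of these genes are uncertain in the same way.

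Acadl, the long chain acyl-CoA dehydrogenase and the gene with the next smallest p, did not pass by edgeR and was called by DESeq2 (adjusted p = 0.0248). It had 363, 400, 364 and 319 CPM in AS-703026 kidneys, against 293, 262, 274, 255, 244 and 302 CPM in control kidneys, a log2 change of 0.42 ± 0.13 (edgeR, adjusted p = 0.0607). The AS-703026 libraries lay above all control libraries. Of the 35 genes, 27 had a positive and 8 a negative log2 change, with a median of 0.13 beside 0.04 over all genes tested. An unadjusted p under 0.05 was reached by 11 of the 35, beside 17.9% of all genes. The receptor Ppara had 32.7, 49.8, 13.5 and 7.89 CPM in AS-703026 kidneys and 16.1 to 23.4 CPM in controls, and the groups overlapped. The coactivator Ppargc1a averaged 122 ± 31.4 CPM in AS-703026 kidneys (SD, n = 4) and 148 ± 34.3 CPM in control kidneys (SD, n = 6).

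Among 54 further pathway genes listed beside these, 48 were tested in kidney, and 3 rose and 2 fell under AS-703026. Those that rose were Ucp2, a mitochondrial carrier (log2 1.40 ± 0.24, adjusted p = 0.0065), Mgll, which splits monoacylglycerols (0.69 ± 0.18, adjusted p = 0.0325), and Acot3, a peroxisomal thioesterase (1.00 ± 0.27, adjusted p = 0.0416). Those that fell were Cyp4a12a, another omega hydroxylase, by 1.16 ± 0.17 (adjusted p = 0.000595), and Ephx2, the soluble epoxide hydrolase, by 0.45 ± 0.10 (adjusted p = 0.0195), all by edgeR's quasi-likelihood test. Cyp4a12a had 708, 641, 999 and 775 CPM in AS-703026 kidneys, against 1331, 1647, 1950, 1801, 2137 and 1724 CPM in control kidneys. Members of the Cyp4a family thus changed in both directions in the same libraries, with no overlap between the groups for any of these 3.

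Some markers of other nephron parts and 1 of 12 tested clock genes were called in the same kidneys. Of 9 tested collecting duct and inner medulla markers 5 were higher under AS-703026, and their summed level ran from 466 to 5270 CPM in AS-703026 kidneys and from 275 to 392 CPM in control kidneys. Summed markers of the thick ascending limb and distal tubule ran from 2706 to 4032 CPM in AS-703026 kidneys and from 2404 to 2869 CPM in control kidneys. Of these 8 markers 4 had a positive and 4 a negative log2 change, from -1.05 to 1.77, and 1 was called higher. Of 12 proximal tubule markers 0 were called, with 2 positive and 10 negative log2 changes. The called clock gene, Arntl, was lower (log2 -1.84 ± 0.50, edgeR, adjusted p = 0.044). It had 13.1, 5.42, 3.83 and 4.66 CPM in AS-703026 kidneys, against 9.83 to 39.5 CPM in control kidneys, with replicate 1 inside the control range. Of the 12 clock genes 8 had a positive and 4 a negative log2 change. The part of these in the Cyp4a results was not tested. In whole tissue, fewer cells of a type and less RNA per cell cannot be told apart.

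**Figure D2:**
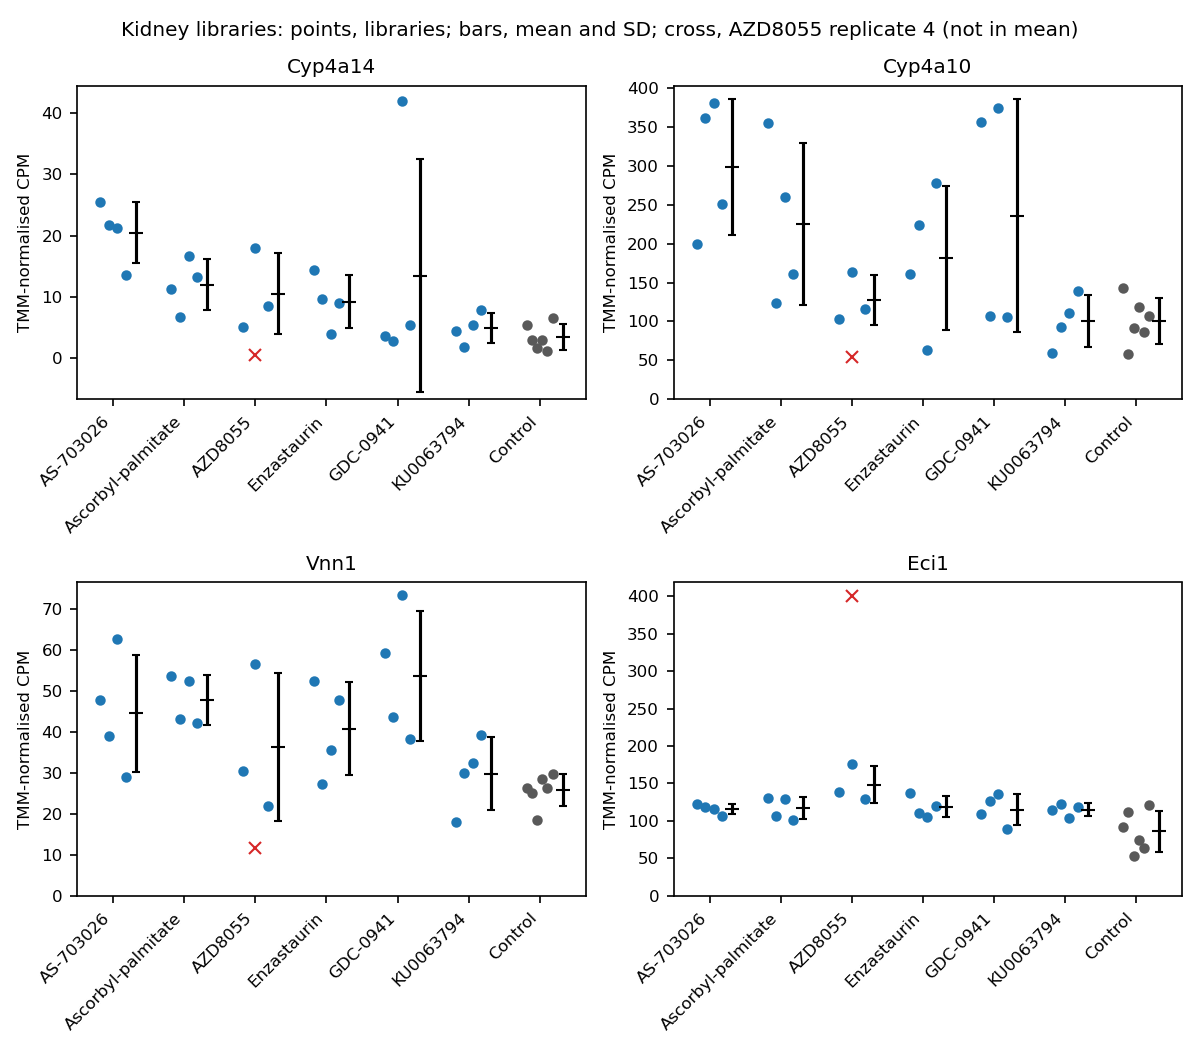
CPM of Cyp4a14, Cyp4a10, Vnn1 and Eci1 in every kidney library (points) by diet, with the mean and SD of each group (bars) and AZD8055 replicate 4 as a red cross outside its group's mean. For Cyp4a14 and Cyp4a10 the 4 AS-703026 libraries lie above all 6 control libraries, and for Cyp4a10 the GDC-0941 libraries fall into 357 and 375 CPM against 107 and 106 CPM.

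In kidneys of mice given GDC-0941, Vnn1, the pantetheinase that makes vitamin B5 from pantetheine and a known PPAR alpha target, rose. It had 59.2, 43.8, 73.5 and 38.2 CPM in GDC-0941 kidneys, against 26.2, 25.1, 18.6, 28.6, 26.4 and 29.7 CPM in control kidneys, and the groups did not overlap. The log2 change was 1.03 ± 0.24 (adjusted p = 0.0449, edgeR's quasi-likelihood test), and this was 1 of 35 genes called beside 0.384% of all genes (0.106% higher and 0.278% lower). The call was lost without GDC-0941 replicate 1, 2 or 3 or control 1, 3, 4 or 5 (log2 0.83 to 1.12, edgeR, adjusted p up to 0.237). It was also lost by limma voom, in a fit of these 2 groups alone and without the kidney libraries at or above 5% satellite-like counts (log2 0.56, edgeR, adjusted p = 0.224). DESeq2 kept it (adjusted p = 0.00582), and so did edgeR with the satellite-like share in the fit (adjusted p = 0.0392).

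The next by p, Etfa and Cd36, did not pass by edgeR under GDC-0941. Etfa, a subunit of the electron transfer flavoprotein, had 239, 203, 155 and 191 CPM in GDC-0941 kidneys and 91.9 to 169 CPM in control kidneys, with overlap. Cd36, a fatty acid receptor of the cell surface, had 611, 696, 544 and 644 CPM in GDC-0941 kidneys and 384 to 606 CPM in control kidneys, with overlap. Their log2 changes were 0.49 ± 0.16 (adjusted p = 0.119) and 0.37 ± 0.12 (adjusted p = 0.139, both edgeR). DESeq2 called both (adjusted p = 0.0354 for Etfa and 0.0359 for Cd36). Of the 35 genes 32 had a positive log2 change, the median was 0.26 beside 0.02 over all genes, and 14 had an unadjusted p under 0.05, beside 15.1% of all genes. Of 48 further pathway genes 0 passed, with 11 at an unadjusted p under 0.05.

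Libraries of the GDC-0941 and ascorbyl-palmitate groups differed among themselves in a few of the genes. Acadm, the medium chain acyl-CoA dehydrogenase, had 598, 257, 606 and 308 CPM in GDC-0941 kidneys and 693, 308, 706 and 305 CPM in ascorbyl-palmitate kidneys, against 252 to 340 CPM in control kidneys. Acot1, a cytosolic thioesterase, had 195, 99.0, 311 and 85.1 CPM in GDC-0941 kidneys and 285, 115, 242 and 117 CPM in ascorbyl-palmitate kidneys, against 62.1 to 150 CPM in control kidneys. In both groups replicates 1 and 3 were above every control and replicates 2 and 4 within the control range for both genes. Of the 8 markers of the thick ascending limb and distal tubule, 5 had a positive and 3 a negative log2 change against control in each of the 2 groups (from -0.74 to 1.22 with GDC-0941 and from -1.04 to 1.61 with ascorbyl-palmitate), and 0 passed. Their summed level was 4162, 1869, 4159 and 2542 CPM in GDC-0941 kidneys and 5940, 2668, 5906 and 2845 CPM in ascorbyl-palmitate kidneys, against 2404 to 2869 CPM in control kidneys. Most of the difference between libraries in that sum came from Umod, which had 2588, 584, 2715 and 1052 CPM in GDC-0941 kidneys and 4581, 1145, 3870 and 1512 CPM in ascorbyl-palmitate kidneys, against 903 to 1412 CPM in control kidneys. The part of the segment markers in these levels was not tested.

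Under ascorbyl-palmitate 0 of 35 genes passed by edgeR, beside 0.0736% of all genes (0.00818% higher and 0.0654% lower), with 10 at an unadjusted p under 0.05 (14.8% of all genes) and 2 calls by DESeq2. Vnn1 had 53.8, 43.1, 52.6 and 42.2 CPM in ascorbyl-palmitate kidneys, against 18.6 to 29.7 CPM in control kidneys, without overlap. Its log2 change was 0.91 ± 0.24 (edgeR, adjusted p = 0.0649), and that of Acadm was 0.85 ± 0.25 (adjusted p = 0.0931). Acadl had 428, 315, 391 and 251 CPM in ascorbyl-palmitate kidneys and 244 to 302 CPM in control kidneys (log2 0.38 ± 0.13, adjusted p = 0.146), with overlap. DESeq2 called Vnn1 and Acadm, limma voom called 3 genes (Acadl, Eci1 and Vnn1), and the list's median log2 change was 0.25. Of 48 further pathway genes 0 passed.

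In the 3 AZD8055 kidneys kept, Eci1, the mitochondrial enoyl-CoA isomerase that prepares unsaturated chains for beta oxidation, rose. It had 138, 176 and 130 CPM in AZD8055 kidneys, against 91.7, 112, 53.2, 74.0, 63.2 and 121 CPM in control kidneys, and the groups did not overlap. The log2 change was 0.76 ± 0.18 (adjusted p = 0.0494, edgeR's quasi-likelihood test), 1 of 35 genes beside 0.262% of all genes (0.0654% higher and 0.196% lower). The call was lost without any one of the 3 AZD8055 libraries, without control 1, 3, 4 or 5 and without enzastaurin replicate 1, with log2 changes of 0.64 to 0.87 and an adjusted p up to 0.238. It was also lost in a fit of the 2 groups alone. Without the kidney libraries at or above 5% satellite-like counts, which leaves 1 AZD8055 library, the log2 change was 0.56. DESeq2 (adjusted p = 0.00906) and limma voom (adjusted p = 0.00358) kept the call. So did edgeR with the satellite-like share in the fit (adjusted p = 0.0416) and with the replicate block (adjusted p = 0.045).

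Etfdh, which passes the electrons on to ubiquinone, had 116, 113 and 131 CPM in AZD8055 kidneys and 66.7 to 106 CPM in control kidneys, without overlap, and did not pass (log2 0.47 ± 0.14, edgeR, adjusted p = 0.139). Acaa1a, a peroxisomal thiolase, had 45.8, 56.0 and 55.4 CPM in AZD8055 kidneys and 23.4 to 43.7 CPM in control kidneys, also without overlap (log2 0.65 ± 0.22, edgeR, adjusted p = 0.175). Both were called by limma voom (adjusted p = 0.0428 for Etfdh and 0.0471 for Acaa1a). Acaa1a shares 50.5% of the 24-base words of its 3′ end with Acaa1b, so the counts of these copies are uncertain. All 9 tested genes of mitochondrial beta oxidation had a positive log2 change under AZD8055, from 0.25 to 0.76. Over the list the median was 0.27 beside -0.01 over all genes, and 9 of 35 had an unadjusted p under 0.05 (12.7% of all genes). Of 48 further pathway genes 0 passed, with 6 at an unadjusted p under 0.05.

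AZD8055 replicate 4 differed from the other kidneys in most of these genes. Of the 35 tested genes it lay above all 29 other kidney libraries in 23, beside 18.2% of all genes, below all of them in 7, beside 14.6% of all genes, and within their range in 5. Pdk4, the kinase that switches off pyruvate dehydrogenase, had 932 CPM in this library, far above every other kidney library. Plin2, a coat protein of lipid droplets, had 992 CPM against at most 64.2 CPM, and Hadhb, the thiolase subunit of the trifunctional protein, 6052 CPM against at most 601 CPM. The 7 genes below all others were Cpt1a, Acot1, Acot12, Cyp4a10, Cyp4a14, Bdh1 and Vnn1. Its proximal tubule markers took 1.24% of counts, the lowest of the kidney libraries, and its adipocyte markers 5.35%, and Alb stood at 232 CPM. With this library kept in the fit, 15 of the 35 genes were called higher under AZD8055, and 0 under AS-703026 and 0 under GDC-0941. The share of all genes called in that fit was not recorded, so these counts stand without it.

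**Figure D3:**
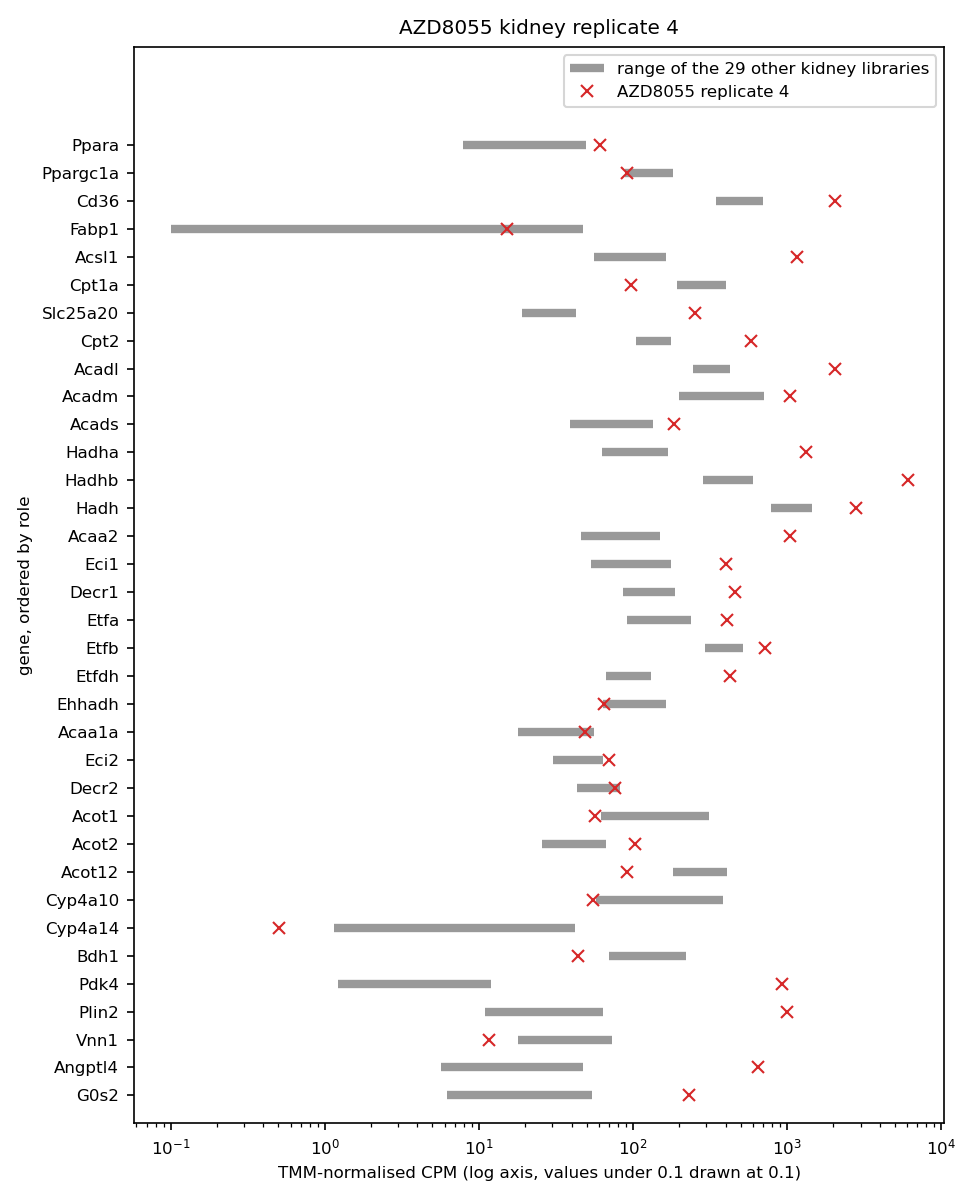
CPM (log axis) of the 35 tested genes in AZD8055 kidney replicate 4 (red crosses) beside the range of the 29 other kidney libraries (grey bars). The cross lies to the right of the bar for 23 genes, most of them of the carnitine shuttle, beta oxidation and lipid storage, and to its left for 7, among them both Cyp4a genes.

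Enzastaurin gave 0 calls among the 35 genes in kidney by edgeR, and 0 of all genes were called (0%). An unadjusted p under 0.05 was reached by 8 of the 35, beside 9.54% of all genes, and the counts were 0 by DESeq2 and 2 by limma voom (Eci1 and Hadha). All but 1 of the log2 changes were positive (34 of 35, with a median of 0.21 beside -0.01 over all genes), and none passed. Eci1 had 138, 111, 106 and 120 CPM in enzastaurin kidneys and 53.2 to 121 CPM in control kidneys (log2 0.45 ± 0.16, adjusted p = 0.387), and the groups overlapped. Hadha, the other subunit of the trifunctional protein, had 143, 133, 130 and 133 CPM in enzastaurin kidneys and 63.0 to 131 CPM in control kidneys (log2 0.41 ± 0.15, adjusted p = 0.402), with overlap. Acadl had 373, 371, 271 and 364 CPM in enzastaurin kidneys and 244 to 302 CPM in control kidneys (log2 0.34 ± 0.13, adjusted p = 0.402), with overlap.

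Fabp1, the liver fatty acid binding protein, had the widest log2 change under enzastaurin in kidney, 1.67 ± 0.64 (edgeR, adjusted p = 0.419). It rests on replicate 1, the library with liver transcripts, where Fabp1 had 47.3 CPM, while the other enzastaurin kidneys had 4.30, 4.70 and 8.65 CPM and control kidneys 1.72 to 10.9 CPM. Without that library the enzastaurin group lies within the control range.

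KU0063794 also gave 0 calls among the 35 genes by edgeR, beside 0.0491% of all genes, with 8 at an unadjusted p under 0.05 (12.2% of all genes), 0 calls by DESeq2 and 3 by limma voom (Eci1, Hadha and Hadh). Hadha had 131, 128, 139 and 140 CPM in KU0063794 kidneys and 63.0 to 131 CPM in control kidneys (log2 0.41 ± 0.15, adjusted p = 0.273), with overlap at the top of the controls. Eci1 had 114, 123, 103 and 119 CPM in KU0063794 kidneys (log2 0.42 ± 0.16, adjusted p = 0.299), and Acaa2, the last thiolase of mitochondrial beta oxidation, 132, 143, 121 and 90.5 CPM against 46.0 to 121 CPM in control kidneys (log2 0.60 ± 0.25, adjusted p = 0.321), both with overlap. Cyp4a10 had 59.3, 92.5, 111 and 139 CPM in KU0063794 kidneys and lay within the control range. Log2 changes were positive for 24 and negative for 11 genes.

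The 6 kidney comparisons share their 6 control libraries, so likeness between their columns of log2 changes is no separate evidence. Ppara averaged 26.0 ± 19.1 CPM with AS-703026, 16.6 ± 4.01 with ascorbyl-palmitate, 20.3 ± 5.30 with GDC-0941, 21.5 ± 4.46 with enzastaurin, 26.4 ± 12.2 with KU0063794 (SD, n = 4 each), 21.3 ± 10.5 with AZD8055 (n = 3) and 19.4 ± 2.86 in controls (n = 6). Its log2 changes ran from -0.18 to 0.37 and none passed. The log2 changes of Ppargc1a ran from -0.45 with GDC-0941 (107 ± 12.1 CPM, SD, n = 4) to -0.04 with enzastaurin (143 ± 9.24 CPM, SD, n = 4), and none passed, and Creb3l3 had at most 7.60 CPM, in enzastaurin replicate 1. Pdk4, Plin2, Angptl4 and G0s2, which steer fuel choice and lipid storage, did not pass in any kidney comparison, and neither did Cpt1a, the entry step of the carnitine shuttle, whose log2 changes ran from -0.11 to 0.17.

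In livers of mice given AS-703026, genes of fatty acid activation and oxidation were lower than in livers of mice given GDC-0941. Of 37 genes tested 5 were lower and 0 higher, beside 3.35% of all 9490 genes called (2.05% higher and 1.3% lower). Without control livers, a fall with AS-703026 and a rise with GDC-0941 cannot be told apart. They were Acsl1, the acyl-CoA synthetase that activates long chain fatty acids, Acadm, Etfa, Creb3l3, and G0s2, the inhibitor of the lipase ATGL. A further 12 of 49 tested pathway genes were lower and 0 higher.

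Acsl1 had 299, 518, 359 and 378 CPM in AS-703026 livers, against 904, 750, 608 and 693 CPM in GDC-0941 livers. Acadm had 150, 184, 188 and 186 CPM in AS-703026 livers, against 254, 272, 273 and 236 CPM in GDC-0941 livers. G0s2 had 11.7, 10.8, 3.68 and 11.7 CPM in AS-703026 livers, against 90.5, 65.3, 34.0 and 53.2 CPM in GDC-0941 livers. For each of these 3 genes all AS-703026 livers lay below all GDC-0941 livers. The log2 changes were -0.93 ± 0.16 for Acsl1 (adjusted p = 0.0043), -0.55 ± 0.10 for Acadm (adjusted p = 0.00629) and -2.74 ± 0.42 for G0s2 (adjusted p = 0.00681) by edgeR's quasi-likelihood test. These 3 calls held without any one library of the comparison, and were lost with the satellite-like share in the fit, where G0s2 had a log2 change of -1.94 (adjusted p = 0.0933).

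Creb3l3 had 191, 250, 191 and 228 CPM in AS-703026 livers, against 275, 281, 342 and 331 CPM in GDC-0941 livers. Etfa had 222, 265, 240 and 248 CPM in AS-703026 livers, against 327, 305, 318 and 346 CPM in GDC-0941 livers. In enzastaurin livers Creb3l3 had 299, 254, 250 and 254 CPM. For neither gene did AS-703026 livers overlap with GDC-0941 livers. The log2 changes were -0.52 ± 0.12 for Creb3l3 (adjusted p = 0.0163) and -0.41 ± 0.09 for Etfa (adjusted p = 0.0189) by edgeR. Creb3l3 lost its call in 4 and Etfa in 3 of the 9 fits that left out a library, namely without AS-703026 replicates 1 or 3 or GDC-0941 replicate 4, and for Creb3l3 also GDC-0941 replicate 3.

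All 9 tested genes of mitochondrial beta oxidation had a negative log2 change in AS-703026 livers against GDC-0941 livers, from -0.55 to -0.17, and so did the 3 of the carnitine shuttle, the 3 of electron transfer and the 5 of peroxisomal oxidation. Ppara had 21.7, 55.8, 17.5 and 38.6 CPM in AS-703026 livers, 34.5, 21.1, 70.7 and 19.2 CPM in enzastaurin livers and 58.7, 73.7, 49.6 and 52.1 CPM in GDC-0941 livers, with overlap, and did not pass in any liver comparison. Ppargc1a averaged 12.9 ± 2.83 CPM in AS-703026 livers, 9.41 ± 4.40 CPM in enzastaurin livers and 9.80 ± 1.61 CPM in GDC-0941 livers (SD, n = 4 each). Over the 37 genes 32 changes were negative and 5 positive, with a median of -0.31 beside 0.00 over all genes, and 17 had an unadjusted p under 0.05, beside 15.7% of all genes. Among the 12 further genes, Aldh3a2, the fatty aldehyde dehydrogenase, was lower by 0.95 ± 0.15 (adjusted p = 0.00278). Acox2, the peroxisomal oxidase of bile acid intermediates, was lower by 0.61 ± 0.11 (adjusted p = 0.0047). Slc27a2, a very long chain acyl-CoA synthetase, was lower by 0.66 ± 0.12 (adjusted p = 0.00594). Pex11a, a peroxisome proliferation factor, was lower by 0.81 ± 0.16 (adjusted p = 0.00893), all on the log2 scale by edgeR.

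**Figure D4:**
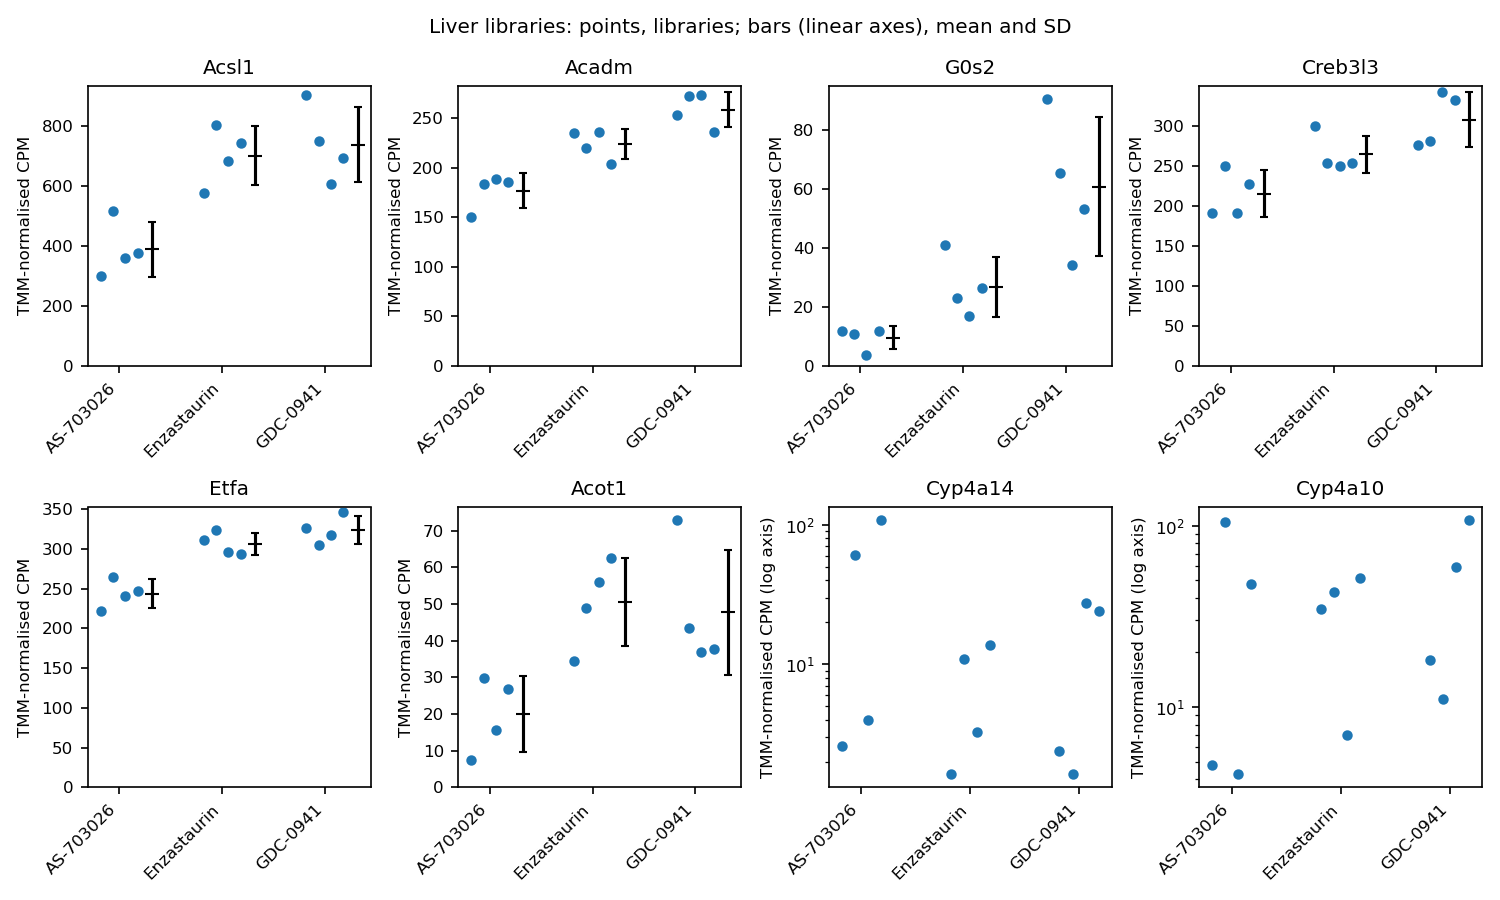
CPM of 8 genes in every liver library (points) of mice given AS-703026, enzastaurin or GDC-0941, with group means and SD on the linear axes and log axes for the Cyp4a genes. The AS-703026 points lie below all GDC-0941 points for Acsl1, Acadm, G0s2, Creb3l3, Etfa and Acot1, and for Cyp4a14 and Cyp4a10 they split into a high and a low pair.

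Against enzastaurin livers 1 of 37 genes was lower in AS-703026 livers and 0 were higher, beside 2.95% of all genes (1.95% higher and 1% lower). This was Acsl1, with 577, 805, 683 and 744 CPM in enzastaurin livers, above all AS-703026 livers, and a log2 change of -0.86 ± 0.16 (adjusted p = 0.0084, edgeR's quasi-likelihood test). The call held without any one library of the comparison. Etfa had 311, 325, 297 and 293 CPM in enzastaurin livers and did not pass (log2 -0.33 ± 0.09, adjusted p = 0.0644). Acot1 had 7.38, 29.7, 15.6 and 26.9 CPM in AS-703026 livers, against 34.5, 48.9, 55.9 and 62.6 CPM in enzastaurin livers, and did not pass either (log2 -1.41 ± 0.38, adjusted p = 0.0837). For both genes all AS-703026 livers lay below all enzastaurin livers. While neither passed by edgeR, DESeq2 called both (adjusted p = 0.00621 for Etfa and 0.00209 for Acot1). Of 49 further genes 2 were lower, Acadsb, a short branched chain acyl-CoA dehydrogenase (log2 -0.54 ± 0.10, adjusted p = 0.00537), and Acox2 (-0.50 ± 0.11, adjusted p = 0.0182). The list's median was -0.07, and 11 of 37 had an unadjusted p under 0.05, beside 15.8% of all genes.

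Enzastaurin against GDC-0941 livers gave 0 calls among the 37 genes by edgeR and by DESeq2, and 0% of all genes were called, with 8 at an unadjusted p under 0.05 (7.79% of all genes). Pdk4 had 5.39, 6.34, 4.52 and 12.3 CPM in enzastaurin livers, against 3.17, 2.98, 1.59 and 1.81 CPM in GDC-0941 livers, without overlap (log2 1.60 ± 0.38, adjusted p = 0.257). G0s2 had 40.9, 23.0, 16.8 and 26.3 CPM in enzastaurin livers and overlapped with the GDC-0941 livers (log2 -1.20 ± 0.36, adjusted p = 0.512). Cpt1a had 226, 174, 200 and 175 CPM in enzastaurin livers, against 311, 207, 290 and 301 CPM in GDC-0941 livers, with overlap (log2 -0.52 ± 0.17, adjusted p = 0.512). Log2 changes were negative for 33 and positive for 4 genes, with a median of -0.19, and 0 of 49 further genes passed.

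The Cyp4a genes did not follow the diet in liver. Cyp4a14 had 2.60, 61.2, 3.96 and 108 CPM in AS-703026 livers, 1.62, 10.8, 3.29 and 13.8 CPM in enzastaurin livers and 2.38, 1.62, 27.3 and 23.9 CPM in GDC-0941 livers. Cyp4a10 had 4.77, 105, 4.24 and 47.9 CPM in AS-703026 livers, 34.5, 43.0, 6.98 and 51.2 CPM in enzastaurin livers and 18.3, 11.1, 59.1 and 107 CPM in GDC-0941 livers. The groups overlapped for both genes, and AS-703026 replicates 2 and 4 were high in both while replicates 1 and 3 were low. Clock genes differed between the same libraries, with Bhlhe41 at 1.74, 65.7, 0.848 and 35.2 CPM and Arntl at 19.1, 0.900, 14.1 and 4.48 CPM in AS-703026 livers 1 to 4. Arntl had 16.7 to 24.8 CPM in enzastaurin livers and 1.27 to 8.33 CPM in GDC-0941 livers. The part of the clock genes in the liver results was not tested.

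Other markers moved beside the lower genes of AS-703026 livers. Of 14 hepatocyte markers the fibrinogen genes Fgb and Fgg were higher and Tdo2 was lower against both other diets. Fgb had 19102, 7153, 15744 and 11370 CPM in AS-703026 livers, against 4947 to 6282 CPM in enzastaurin livers and 4218 to 4981 CPM in GDC-0941 livers. The satellite-like share was 0.808% to 1.68% in AS-703026 livers, 0.117% to 0.568% in enzastaurin livers and 0.311% to 0.612% in GDC-0941 livers. These ranges do not overlap, so that share and the diet cannot be told apart, and with the share in the fit 0 genes of the list passed in either comparison of AS-703026. In that fit the log2 changes against GDC-0941 were -1.04 for Acsl1 (edgeR, adjusted p = 0.102), -0.61 for Acadm (adjusted p = 0.113), -1.94 for G0s2 (adjusted p = 0.0933), -0.43 for Creb3l3 (adjusted p = 0.382) and -0.42 for Etfa (adjusted p = 0.288), and against enzastaurin that of Acsl1 was -0.997 (adjusted p = 0.304). Of 8 immune markers the complement genes C1qa and C1qb were higher against GDC-0941, and their part was not tested.

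Promoters of 34 of the 40 genes were matched in RefSeq sequence (GRCm38.p6), 37 promoters in all. The direct repeat that PPAR alpha binds with its partner RXR was searched on both strands of the 250 bases before the gene start that RefSeq gives as AGGTCANAGGTCA, which 0 of the 37 held (0.0335% of 32851 promoters), and in the looser form AGGNCANAGGNCA, which Fabp1 alone held (0.338% of all promoters). A single AGGTCA, which the reverse complement of the Fabp1 repeat also contains, was found in promoters of 8 genes (14.0% of all promoters). Among them were Acadm and Creb3l3, which were called lower in AS-703026 livers against GDC-0941 livers and not against enzastaurin livers. Windows of Fabp1, far lower in kidney than in liver, and of Acadm are shown, and that of Creb3l3 is not. Matched letters are in capitals, read along the gene's strand.
Fabp1 (chr6:71199772-71199864, + strand): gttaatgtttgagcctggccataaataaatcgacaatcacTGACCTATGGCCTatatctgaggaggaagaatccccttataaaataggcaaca
Acadm (chr3:153944847-153944893, - strand): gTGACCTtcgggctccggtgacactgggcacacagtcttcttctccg
The Fabp1 repeat starts 67 bases before the RefSeq gene start. A match is a run of letters and no measure of binding, and the windows leave out enhancers further away.

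Over the 24 libraries of AS-703026, enzastaurin and GDC-0941, 10 of 37 genes were higher and 21 lower in kidney than in liver, beside 77.1% of all 12262 genes called (39% higher and 38.1% lower). An unadjusted p under 0.05 was reached by 31 of the 37, beside 78.3% of all genes, so most genes of any kind differed between the tissues. Fabp1 had 0 to 47.3 CPM in these kidneys and 991 to 2828 CPM in these livers, a log2 change of -8.99 ± 0.44. The log2 changes come from the fit of these 24 libraries together, while CPM were scaled within each tissue. Creb3l3 had a log2 change of -9.34 ± 0.33, Plin2 of -5.15 ± 0.19 and Acaa2 of -4.11 ± 0.13, the last with 50.9 to 150 CPM in kidneys and 795 to 1216 CPM in livers. Acsl1 (-3.11 ± 0.14), the carnitine shuttle carrier Slc25a20 (-2.68 ± 0.10), the peroxisomal isomerase Eci2 (-2.57 ± 0.09), the peroxisomal reductase Decr2 (-2.41 ± 0.09) and Etfdh (-2.11 ± 0.07) were also lower in kidney.

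Those higher in kidney were Cd36 (log2 3.57 ± 0.22), Ppargc1a (2.82 ± 0.13), the mitochondrial thioesterase Acot2 (2.06 ± 0.17), Cyp4a10 (1.89 ± 0.49), Acot1 (1.63 ± 0.23), Vnn1 (1.60 ± 0.35), the peroxisomal bifunctional enzyme Ehhadh (1.21 ± 0.11), Hadhb (0.55 ± 0.07), Hadh (0.35 ± 0.08) and Etfb (0.18 ± 0.08). Their adjusted p-values by edgeR's quasi-likelihood test were 0.0463 for Etfb and at most 0.00185 for the others. Acadm (0.23 ± 0.13), Acadl (-0.10 ± 0.07) and Cpt2 (-0.14 ± 0.08) did not pass and differed little, while other steps of the same pathway differed widely. Ppara itself was lower in kidney (log2 -1.60 ± 0.27, edgeR, adjusted p = 2.37e-05). It had 7.89 to 49.8 CPM in these kidneys and 17.5 to 73.7 CPM in these livers. These ranges overlapped, on scales set within each tissue. Roles did not move as one, since 5 of 9 genes of mitochondrial beta oxidation were lower and 2 higher in kidney, and all 3 tested thioesterases had a positive change, with 2 called.

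**Figure D5:**
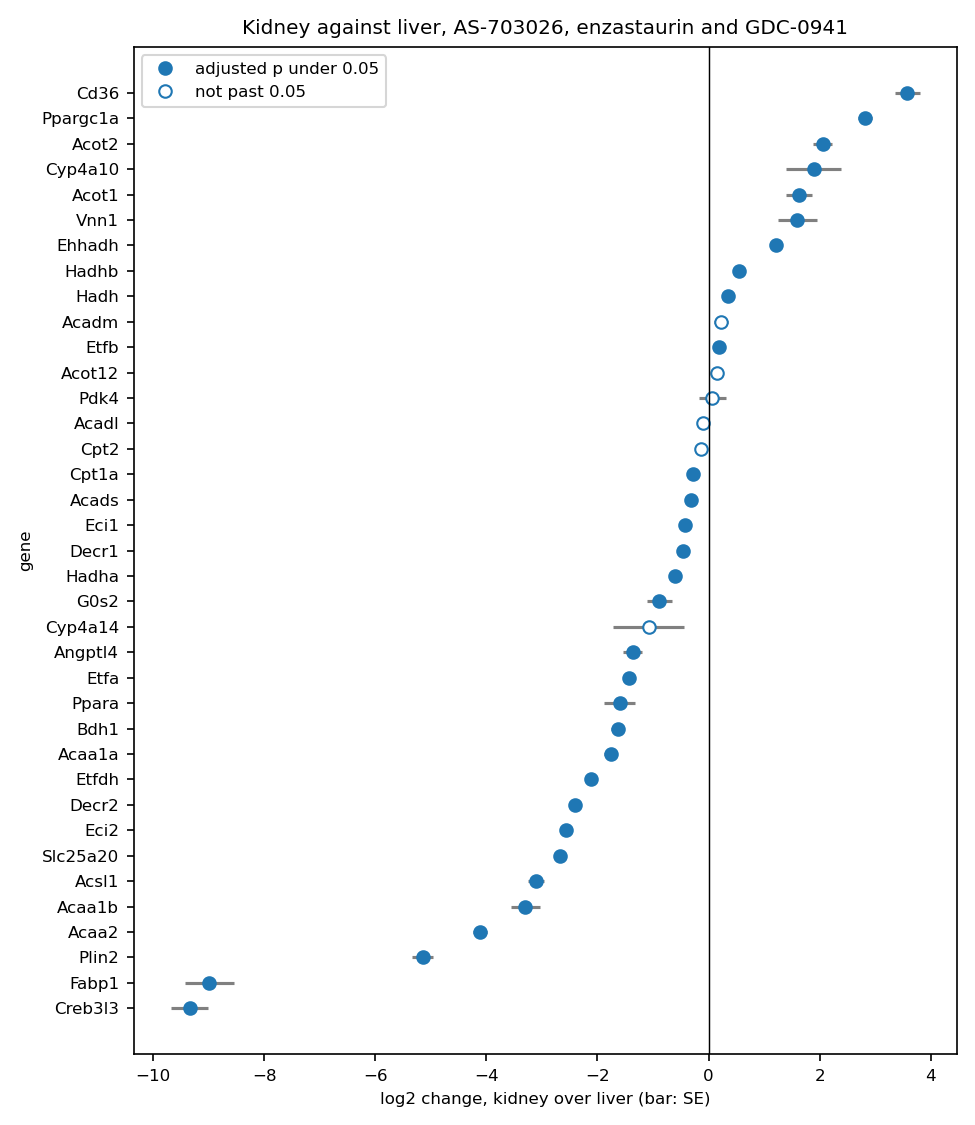
The log2 change of kidney over liver for the 37 tested genes (points, with SE as bars) across the 3 diets given in both tissues, filled where the adjusted p is under 0.05. Cd36 and Ppargc1a are furthest to the right, at 3.57 and 2.82, and Creb3l3 and Fabp1 furthest to the left, at -9.34 and -8.99.

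The compound by tissue interaction, which asks whether the 3 diets differ between each other in kidney as they do in liver, gave 0 calls among the 37 genes by edgeR and by DESeq2, beside 0.139% of all genes. An unadjusted p under 0.05 was reached by 3 genes, Acot1 (adjusted p = 0.417), Acadl (adjusted p = 0.486) and Pdk4 (adjusted p = 0.504). Acot1 averaged 192 CPM with AS-703026, 171 CPM with enzastaurin and 172 CPM with GDC-0941 in kidney, and 19.9 CPM, 50.4 CPM and 47.7 CPM with the same compounds in liver. Changes that passed in one tissue and not in the other are thus not shown to differ between the tissues.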

How the data were processed

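Kidney and liver RNA was measured by CEL-seq, which counts tags near the 3′ end of polyadenylated transcripts, in 42 libraries. The authors deposited raw counts per Ensembl gene. Tools named in the submitters' processing notes are STAR 2.5.2b, featureCounts 1.5, Trimmomatic 0.32 and bcl2fastq 1.8.4, with the build mm10. For the annotation release, the strand setting and any collapse of molecular identifiers, nothing is given in the sources used here. Without collapse, reads of 1 molecule can be counted repeatedly, and without strand, overlapping genes cannot be told apart.

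Symbols came from GENCODE M21 (GRCm38), which matched 42462 of 43629 IDs. Counts were filtered with filterByExpr, TMM scaled and tested with edgeR 4.0.16 (robust quasi-likelihood, R 4.3.3) over all genes with Benjamini-Hochberg adjustment at 0.05. One fit covered 29 kidney libraries, one 12 liver libraries and one the 24 libraries of the 3 shared compounds. Nothing in the labels says how the mice were housed or batched, and p-values measure the spread between these mice. No pair of libraries of the same group agreed within sampling noise, and pairs across groups were not compared in this way. DESeq2 1.42.0, limma 3.58.1 and other scalings, filters and covariates were tried. The fit was tested on simulated data.

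The members and the gene lists were chosen with earlier results of these data known. Genes named are those called, up to 8, and where fewer than 3 were called the 3 with the smallest p, in each comparison, with the regulators Ppara, Ppargc1a and Creb3l3. Further pathway genes are named where called, up to 5 by smallest p, except that some are not reported here. Protein identity of near copies was not used here. Genes named for differing between libraries of 1 group, and markers beside a result, were chosen after their values were seen.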

Additional observations from a re-analysis of the deposited data

Results flagged for a closer look

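Of 46 groups of 4 to 6 libraries checked for the named genes, 3 held a library far from the others, and chance gives about 1 in 20 groups. Acadl had 271 CPM in enzastaurin kidney replicate 3, below its group. The nearest enzastaurin library had 364 CPM, a gap of 0.917 of the group's range. Acadm had 150 CPM in AS-703026 liver replicate 1, with the nearest AS-703026 library at 184 CPM (0.875 of the range). G0s2 had 3.68 CPM in AS-703026 liver replicate 3, with the nearest AS-703026 library at 10.8 CPM (0.885 of the range). The calls of Acadm and G0s2 against GDC-0941 held without these libraries.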

How the results depend on the processing

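No gene named as called or among the 3 smallest p changed direction in its comparison under any alternative run. The interaction and the other genes were not checked for direction. Counts of called genes of the list moved as follows. For these runs only genes of the list were recorded, so no share of all genes called stands beside the counts. With DESeq2 they were 4 for AS-703026, 2 for ascorbyl-palmitate and 4 for GDC-0941 in kidney, and in liver 5 for AS-703026 against enzastaurin and 8 against GDC-0941. With limma voom the kidney counts were 1 for AS-703026, 3 for ascorbyl-palmitate, 3 for AZD8055, 2 for enzastaurin, 0 for GDC-0941 and 3 for KU0063794. Without a filter on low counts they were in kidney 6 for AS-703026, 5 for ascorbyl-palmitate, 2 for AZD8055, 4 for enzastaurin, 6 for GDC-0941 and 1 for KU0063794, and in liver 2 and 10 for AS-703026 against enzastaurin and GDC-0941 and 2 for enzastaurin against GDC-0941. With the satellite-like share as covariate they were 0 for AS-703026 in kidney and 0 in both liver comparisons of AS-703026. With AZD8055 replicate 4 kept they were 0 for AS-703026, 15 for AZD8055 and 0 for GDC-0941. In fits of 2 groups alone AZD8055 and GDC-0941 had 0. Alternatives chosen after seeing the data gave 0 for AS-703026, 1 for ascorbyl-palmitate, 0 for AZD8055 and 0 for GDC-0941 without kidney libraries at or above 5% satellite-like counts, which leaves 1 AS-703026 and 1 AZD8055 library, each assumed to vary like the other groups. They gave 0 for AZD8055 without enzastaurin kidney replicate 1, and 1 for the interaction (Cd36, adjusted p = 0.046 by edgeR) without enzastaurin liver replicate 2. The cause of these moves was not tested.

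Replicate numbers did not pair the libraries. Correlations of same-numbered libraries' deviations ran from -0.56 to 0.52 in kidney and -0.18 to 0.15 in liver. With the replicate block the counts were 0 for AS-703026 and 0 for GDC-0941 in kidney, 2 for AS-703026 against enzastaurin and 1 for enzastaurin against GDC-0941 in liver. Leaving out 1 library gave 0 to 4 calls for AS-703026, 0 to 1 for ascorbyl-palmitate, 0 to 2 for AZD8055, 0 to 1 for GDC-0941 and 0 to 0 for enzastaurin and KU0063794 in kidney. In liver it gave 1 to 2 for AS-703026 against enzastaurin, 3 to 9 against GDC-0941 and 0 to 0 for enzastaurin against GDC-0941. It gave 30 to 33 for kidney against liver and 0 to 1 for the interaction. The shallowest kidney library held 863605 counts, so genes of a few CPM rest on few reads.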

Other observations

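Within kidney groups, some of the genes varied with the summed markers of a nephron part, over 29 libraries after each group's mean was taken off. These relations were chosen after the data were seen, 105 were computed, and both sides are shares of the same library totals. With markers of the thick ascending limb and distal tubule, Acot1 had Pearson's r = 0.77 and Spearman's rho = 0.75 (permutation p = 0.00085, adjusted p = 0.0344), and r was 0.74 without the 2 farthest libraries. Cyp4a10 had r = 0.71 and rho = 0.70 (permutation p = 0.0013, adjusted p = 0.0344; r = 0.65 without 2 libraries), and Cpt2 had r = 0.59 and rho = 0.64 (permutation p = 0.00057, adjusted p = 0.0344; r = 0.60). Acadm had r = 0.82 and rho = 0.72 and did not pass (permutation p = 0.0034, adjusted p = 0.072). In GDC-0941 and ascorbyl-palmitate kidneys most of the difference in this sum came from Umod. Relations to single markers were not tested. With collecting duct markers Bdh1 had r = 0.71 and rho = 0.72 (permutation adjusted p = 0.0344; r = 0.70). With proximal tubule markers 0 of 35 genes passed.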
